A study of Mus musculus with 6 samples.

Results

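Mrc1 Stab1 tumor-associated macrophage nuclei were examined in single-nucleus RNA sequencing (snRNA-seq) data of subcutaneous TC1 tumors. TC1 is a mouse lung tumor cell line that grows when implanted under the skin. A nucleus was taken when it had 3 or more counts over 10 myeloid genes (Adgre1, Cadm1, Csf1r, Cd84, Lair1, Spi1, Mrc1, Stab1, Ms4a7 and St18), of which 2 or more came from the 4 core genes Mrc1, Stab1, Ms4a7 and St18. It also had to have 0 counts of the monocyte genes Ccr2, Slfn4 and Gpr141, and under 0.5% of its unique molecular identifiers (UMIs, the counted RNA molecules) from the tumor genes Hmga2, Mecom and Slit2. These limits selected 1865 of 18014 kept nuclei (10.4%), here called Mrc1 Stab1 nuclei. The nuclei were thus chosen by the measured counts of these 16 genes, whose levels in them are given as a description with no test. Nuclei with 0.5% or more of their UMIs from the tumor genes and under 3 counts over the 10 myeloid genes are called tumor-messenger nuclei.

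The study compared tumors grown in mice with and without induced loss of MCT2, the monocarboxylate transporter encoded by Slc16a7, which carries lactate, pyruvate and ketone bodies. All mice were C57BL/6, carried MCT2loxP/loxP;Cre+ and were 8 weeks old. The KO group (3 libraries) received tamoxifen daily for 5 days to delete the floxed gene and the CO group (3 libraries) received vehicle, and TC1 cells were implanted afterwards and grew for 24 days. Both groups therefore shared the floxed alleles and the Cre, the implanted tumor cells did not carry the deletion, and the effects of tamoxifen and of the deletion cannot be told apart. The promoter that drives the Cre is not given in the sources used here. The labels give the tissue as lung although the tumors grew at the flank. Nothing in the labels states that the replicates of a group were separate animals, so p-values measure the spread between these libraries.

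Macrophages enter tumors mainly as blood monocytes that respond to the chemokine receptor Ccr2, and mature under the growth factor receptor encoded by Csf1r. As they mature, many express endocytic receptors that clear debris, sugars and modified lipoproteins. Mrc1 encodes the mannose receptor (CD206) and Stab1 encodes stabilin-1, both scavenging receptors that are widely used to recognise tumor-associated macrophages. Ms4a7 encodes a tetraspan membrane protein of macrophages, Adgre1 encodes the macrophage surface protein F4/80, Cadm1 encodes a cell adhesion molecule and St18 encodes a zinc finger transcription factor. Spi1 encodes PU.1, the transcription factor on which the macrophage lineage depends, and PU.1 binds DNA around the core GAGGAA.

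The DNA upstream of Mrc1 and Stab1, the genes that name these nuclei, is shown with every copy of GAGGAA (or TTCCTC, the same core on the other strand) in capitals. The sequences are from RefSeq, build GRCm38.p6, read 5′ to 3′ on the strand of the gene and ending before the gene. Mrc1 is shown at chr2:14229164-14229391 (plus strand, 228 bases, leaving out 22 that the gene annotation counts as Mrc1) and Stab1 at chr14:31168642-31168891 (minus strand, 250 bases).
Mrc1: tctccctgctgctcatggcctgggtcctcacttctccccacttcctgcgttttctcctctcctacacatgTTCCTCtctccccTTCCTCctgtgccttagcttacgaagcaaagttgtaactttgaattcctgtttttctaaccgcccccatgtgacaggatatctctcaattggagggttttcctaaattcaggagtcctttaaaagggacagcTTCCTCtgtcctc
Stab1: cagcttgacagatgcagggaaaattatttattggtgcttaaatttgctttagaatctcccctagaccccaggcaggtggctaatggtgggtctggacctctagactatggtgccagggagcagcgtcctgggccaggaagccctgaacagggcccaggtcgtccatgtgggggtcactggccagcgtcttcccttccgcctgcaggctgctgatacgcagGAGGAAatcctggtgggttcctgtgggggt
The Mrc1 sequence held 3 copies of the core and the Stab1 sequence held 1. Over all 32851 RefSeq promoter windows of 250 bases, 23.3% held GAGGAA on either strand. Of the 5 myeloid gate genes with a window, 3 held it (Lair1, Mrc1 and Stab1). Of the 20 genes that led these nuclei against all other nuclei (named further on), 18 had a window and 8 of them (44.4%) held the core: Cd33, Lilra5, Ms4a14, Nlrp1a, Pparg, Rasgef1b, Tlr1 and Tlr8. A gene was counted if any of its windows held the core, so shares of genes and of windows are unlike measures. The longer word GAGGAAGT, which contains the core, was in 2.44% of all windows, in 2 of the 18 (Nlrp1a and Tlr1) and in 0 of the 5. A match of letters is a description and not a bound site.

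The libraries held 13252572 to 22057084 UMIs and 1916 to 4934 barcodes each. Between 1790 and 4776 nuclei per library had 100 to 7500 detected genes and under 20% mitochondrial counts and were kept. Library pairs shared 19 to 25 barcodes, and 1 of these was a Mrc1 Stab1 nucleus in both libraries (CO replicate 1 and KO replicate 3). The Mrc1 Stab1 nuclei of the 6 libraries did not fall into CO and KO. Across 7533 genes, CO replicates 1 and 2 and KO replicate 1 resembled each other (Pearson r of log2 level 0.921 to 0.947, a description over genes that share library and depth), while KO replicate 1 and KO replicate 2 had the lowest r, 0.749. The 3 tumor genes of the gate also differed between libraries. Hmga2, Mecom and Slit2 together made up 0.0385%, 0.0426% and 0.0627% of the UMIs of Mrc1 Stab1 nuclei in CO and 0.0524%, 0.185% and 0.199% in KO, and nuclei with no such count made up 72.7%, 67.1% and 39.4% of them in CO but 66.8%, 6.93% and 5.57% in KO. The 7 tumor markers outside the gate did not divide in this way, at 22.6%, 27.7% and 18.1% of their level in tumor-messenger nuclei in CO and 24.9%, 19.1% and 27.0% in KO. Ribosomal protein genes made up 1.84%, 1.83% and 1.33% of their UMIs in CO but 2.14%, 0.608% and 1.06% in KO. Each comparison of KO with CO below has these differences beside it, and their part in the results was not tested.

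The CO libraries (replicates 1, 2 and 3) held 297, 428 and 208 Mrc1 Stab1 nuclei and the KO libraries held 400, 101 and 431. Their median depth per nucleus was low and overlapped between the groups. It was 1138, 1209 and 1416.5 UMIs in the CO libraries, while the KO libraries had 1148, 1338 and 1421 UMIs, against a median of 4714 UMIs in tumor-messenger nuclei. Most nuclei carried few of the 4 core genes at this depth, with 1 of the 4 detected in 480 nuclei (25.7%), 2 in 931 (49.9%), 3 in 374 (20.1%) and all 4 in 80 (4.29%). Mrc1 and Stab1 were detected together in 343 nuclei (18.4%). At the edge of the gate, 71 nuclei sat at both count limits, 661 nuclei were outside by lacking 1 core count and 520 were outside by exactly 1 monocyte count. The median of myeloid counts was 3 in the first set and 5 and 9 in the others.

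Levels are given as CPM, the counts of a gene summed over a set of nuclei, divided by all their counts and scaled to 1000000, and are compared within a gene. Mrc1 was at 732, 477 and 1033 CPM in the Mrc1 Stab1 nuclei of CO and at 757, 621 and 466 CPM in KO. Stab1 was at 367, 408 and 587 CPM in CO and at 567, 225 and 251 CPM in KO. For both receptors the CO and KO libraries overlapped, and KO replicate 1 was the highest of its group for each. Ms4a7 was at 1379, 1331 and 710 CPM in CO and 1048, 768 and 702 CPM in KO. St18 was at 548, 1012 and 407 CPM in CO and 604, 1401 and 1174 CPM in KO. These too overlapped between the groups. Adgre1 was at 797, 685 and 902 CPM in CO and 526, 494 and 599 CPM in KO, and here the ranges did not overlap. Cadm1 was at 1172, 1171 and 1408 CPM in CO and 905, 2462 and 1997 CPM in KO, with KO replicate 1 below every other library and the remaining KO libraries above.

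The comparison set closest to these nuclei was the 675 nuclei that passed the same tumor and myeloid limits and had 2 or more counts of Ccr2, Slfn4 and Gpr141 (Ccr2 Slfn4 Gpr141 nuclei). By the rule, Mrc1, Stab1, Ms4a7 and St18 were higher in Mrc1 Stab1 nuclei in all 6 libraries, with within-library ratios of 1.54 to 2.23, 1.42 to 2.69, 1.22 to 2.11 and 1.79 to 5.78. Cadm1 was higher too, at a mean of 1519 CPM against 980 CPM (ratios of 1.00 to 2.09), and was detected in 66.1% of Mrc1 Stab1 nuclei against 44.3%. Csf1r, Spi1 and Lair1 were lower on average than in Ccr2 Slfn4 Gpr141 nuclei, with Csf1r at a mean of 302 CPM against 329 CPM, Spi1 at 490 against 570 CPM and Lair1 at 484 against 526 CPM. The limits bear on these genes too, since Ccr2 Slfn4 Gpr141 nuclei needed 3 myeloid counts but no core count. In the 9085 tumor-messenger nuclei, limited by definition to under 3 myeloid counts, the 10 myeloid gate genes averaged 2.63 to 6.77 CPM.

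**Figure D1:**
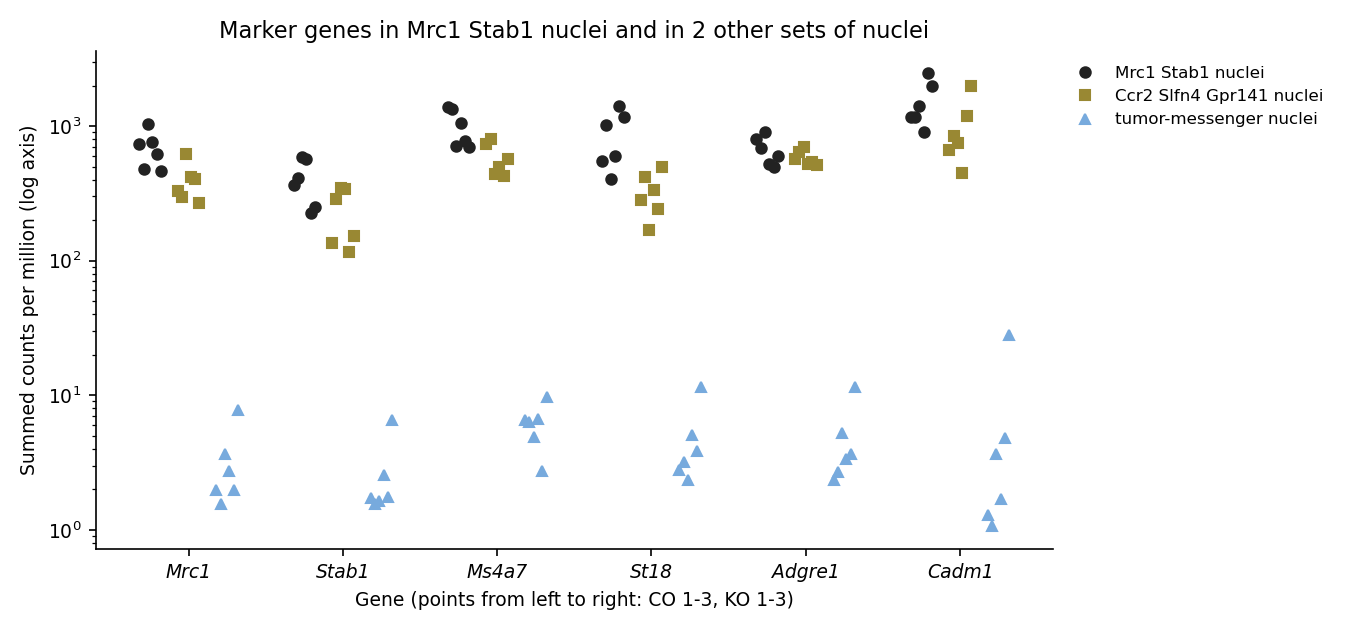
CPM (log axis) of 6 marker genes in each of the 6 libraries, in Mrc1 Stab1 nuclei (circles), Ccr2 Slfn4 Gpr141 nuclei (squares) and tumor-messenger nuclei (triangles), ordered from CO replicate 1 to KO replicate 3. All circles lie far above the triangles, as the limits that define both sets require. Circles and squares lie close, with mean Mrc1 at 681 CPM against 390 CPM.

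By the limits that define both sets, detection per nucleus was far above that in tumor-messenger nuclei for all 6 of these genes. Ms4a7 had a UMI in 69.1% of Mrc1 Stab1 nuclei, Cadm1 in 66.1%, Adgre1 in 52.1%, St18 in 50.2%, Mrc1 in 45.9% and Stab1 in 37.6%, at a median of 1247 UMIs. In tumor-messenger nuclei, which were deeper, the corresponding shares were 3.78%, 3.32%, 2.70%, 2.67%, 1.82% and 1.53%. The limit of under 3 myeloid counts holds these shares down, so they do not measure the background of the assay.

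Macrophage markers outside the gate were checked next. All 15 macrophage markers outside the gate were detected. Ctss, a lysosomal protease, had a UMI in 66.6% of these nuclei, Fcer1g in 47.7%, the engulfment receptor Mertk in 45.6%, C1qa in 43.2% and Cybb, a subunit of the phagocyte oxidase, in 37.7%. Against tumor-messenger nuclei the shares were 17.5%, 16.6%, 56.2%, 21.4% and 3.74%, so Mertk was detected more often in the deeper tumor-messenger nuclei. Thinned to 1000 UMIs, Mertk was detected in 39.2% of Mrc1 Stab1 nuclei against 20.5%, and its level was 590 CPM against 262 CPM. In Ccr2 Slfn4 Gpr141 nuclei the thinned shares of Ctss, Fcer1g, C1qa and Cybb were 71.5%, 42.7%, 39.9% and 37.3%. In Mrc1 Stab1 nuclei they were lower, at 58.6%, 40.3%, 35.6% and 32.7%, while Mertk was higher, at 39.2% against 24.0%. The 15 markers summed to a mean of 5031 CPM in Mrc1 Stab1 nuclei and 5547 CPM in Ccr2 Slfn4 Gpr141 nuclei, so they do not set the former apart. Cd68 and Aif1 were detected in few nuclei, in 5.95% and 4.77% of Mrc1 Stab1 nuclei against 5.34% and 2.14% of tumor-messenger nuclei. With every nucleus thinned to 1000 UMIs the shares were 4.21% against 0.973% for Cd68 and 3.46% against 0.370% for Aif1.

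Markers of other cell types ranged from absent to common. Among the monocyte markers that the gate did not use, Ly6c2 was detected in 1.45%, Plac8 in 2.79% and Chil3 in 0.804%, but Fn1, which encodes fibronectin, was in 17.5%, against 62.3% of tumor-messenger nuclei. Of the dendritic markers Clec9a, Ccr7 and Cd209a had 0 counts, and 0 of 1865 nuclei allows a share of up to 0.161% with a UMI (3 counts, counting error only), and Flt3 was in 0.161%, but Itgax was in 13.7%. Of the neutrophil markers Retnlg and Cxcr2 had 0 counts and S100a8 and S100a9 were in 0.214% and 0.107%, but Csf3r was in 21.8%. Pecam1 was detected in 18.1% while the endothelial markers Kdr and Cdh5 were in 1.02% and 0.643%. Bank1 was detected in 7.67% while the B cell genes Cd79a and Pax5 were at 0, and Cd3e was in 0.0536%. The fibroblast genes Col3a1 and Pdgfra were detected in 27.9% and 9.49%, against 64.3% and 80.0% in tumor-messenger nuclei, which carry them too. The erythroid marker Hbb-bs was in 9.17%, against 11.2% of tumor-messenger nuclei (6.54% against 2.71% thinned). All 4 adipocyte markers were at 0. Skeletal muscle markers summed to 464 CPM in CO replicate 3 and to 0 to 24.4 CPM in the other libraries.

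Of 5599 genes with 20 CPM or more in the Mrc1 Stab1 nuclei of every library, 736 were over 2 times their level in all other nuclei in all 6 libraries. The 20 genes with the highest ratio outside the gate are described next. The other nuclei included the 9085 tumor-messenger nuclei. Against Ccr2 Slfn4 Gpr141 nuclei the mean levels of these 20 genes were 0.755 to 2.38 times, so many are shared by both sets. Zfp991 (0.755), Nlrp1a (0.940) and Tlr8 (0.975) were lower on average in Mrc1 Stab1 nuclei, and Fcrl5 had the highest ratio. Lilra5, a leukocyte immunoglobulin-like receptor, was at 115, 107 and 71.6 CPM in CO and 77.7, 85.3 and 102 CPM in KO, and its ratio to all other nuclei was 11.3 or more in every library with a median of 17.3. Gatm, an enzyme of creatine synthesis, was at 78.7, 84.5 and 100.2 CPM in CO and 109, 60.9 and 117 CPM in KO, with a median ratio of 12.3. The toll-like receptor genes Tlr1 and Tlr8 averaged 103 and 78.2 CPM with median ratios of 13.96 and 12.4. C5ar1, the receptor of the complement fragment C5a, varied widely among the libraries, at 118, 130 and 115 CPM in CO and 229, 30.5 and 48.2 CPM in KO.

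Aoah, an enzyme that inactivates bacterial lipopolysaccharide, was at 1282, 1521 and 1503 CPM in CO and 829, 1383 and 2032 CPM in KO, with a median ratio of 14.6. Pparg, a nuclear receptor of lipid metabolism, was at 134, 276 and 163 CPM in CO and 101, 219 and 343 CPM in KO, with a median ratio of 11.4. For both, KO replicate 1 was the lowest library and KO replicate 3 the highest. Rnf180 (mean 633 CPM), Abcg3 (476 CPM), Blnk (324 CPM), an adaptor first known from B cells, Rasgef1b (279 CPM), Zmynd15 (197 CPM), Ms4a14 (161 CPM), Fcrl5 (140 CPM), Olfr111 (139 CPM), Tmem26 (96.7 CPM), Zfp991 (63.6 CPM), Nlrp1a (59.3 CPM), an inflammasome sensor, Fhad1 (58.1 CPM) and Cd33 (55.0 CPM) completed the 20, with median ratios of 10.0 to 20.4. Several of these belong to families of related genes (Lilra5, Olfr111, Zfp991, Nlrp1a and Ms4a14). Where relatives are alike in sequence, counting can split or drop reads, so their levels may be uncertain, which was not tested.

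**Figure D2:**
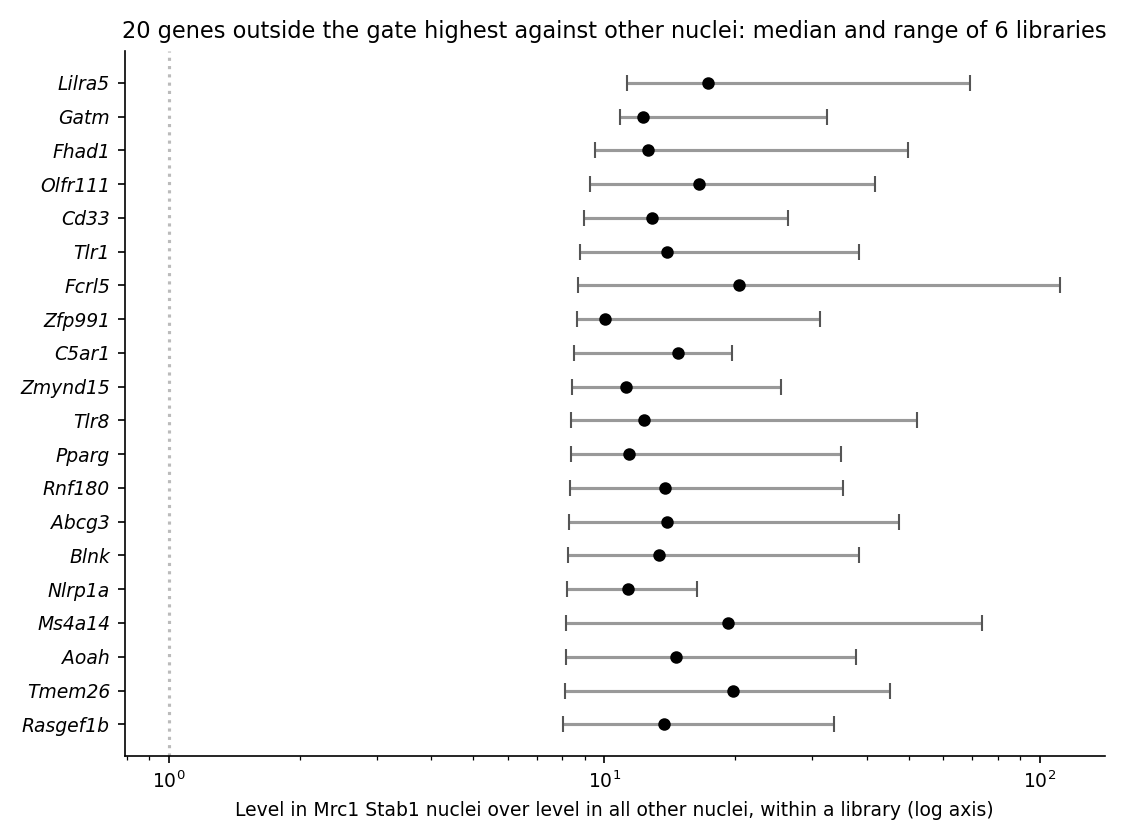
For the 20 genes outside the gate with the highest ratio, the level in Mrc1 Stab1 nuclei over the level in all other nuclei of the same library (log axis), as the median (circle) and the lowest and highest of 6 libraries (line). The lowest ratio of any of the 20 was 8.04, for Rasgef1b, and the highest single ratio was 111, for Fcrl5.

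Against Ccr2 Slfn4 Gpr141 nuclei the differences were small among genes at 20 CPM or more in the Mrc1 Stab1 nuclei of every library. Genes low in Mrc1 Stab1 nuclei could not enter this count. Among them were the monocyte markers Chil3, detected in 0.804% against 7.56% of Ccr2 Slfn4 Gpr141 nuclei, and Ly6c2, in 1.45% against 7.26%. All monocyte markers outside the gate were detected more often in Ccr2 Slfn4 Gpr141 nuclei. Of the 5599 genes, 0 were over 2 times higher and 1 was under 0.5 times in all 6 libraries, while 311 were higher and 253 lower in all 6. The gene under 0.5 times was Emb, which encodes embigin, a membrane partner that brings monocarboxylate transporters to the cell surface. Emb was at 39.3, 49.3 and 20.04 CPM in CO and 93.2, 24.4 and 33.6 CPM in KO, 0.162 to 0.427 times its level in Ccr2 Slfn4 Gpr141 nuclei. The interferon-inducible genes Ifi209 (ratios 0.475 to 0.562) and Mndal (0.528 to 0.601) and the MHC class II activator Ciita (0.180 to 0.616) were also lower in all 6 libraries. So were Abcb1a, Abtb2, Itpr1, Ms4a4c, Atp8b4 and Cers6, each with a highest ratio of 0.528 to 0.633.

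The genes that were highest against Ccr2 Slfn4 Gpr141 nuclei included Mertk, a receptor for apoptotic cells, at 459, 452 and 532 CPM in CO and 650, 774 and 670 CPM in KO, with ratios of 1.31 to 2.91. Tanc2 (1.49 to 2.27), Sbf2 (1.47 to 2.12), the potassium channel gene Kcnk13 (1.35 to 2.14) and the autophagy adaptor gene Wdfy3 (1.33 to 1.98) were higher in all 6 libraries. So were Tbc1d10b, Slc38a6, Fcrl5 and Sox5, with lowest ratios of 1.32 to 1.44. Negr1, a neural adhesion molecule, headed this ranking with ratios of 1.56 to 7.95. It was at 608, 1032 and 1019 CPM in CO and at 1286 and 955 CPM in KO replicates 2 and 3, but at 48.5 CPM (25 UMIs) in KO replicate 1.

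Within the Mrc1 Stab1 nuclei, clustering without the gate genes gave 4 subgroups, described here with no test because every gene of these nuclei was used. The largest subgroup (921 nuclei, 49.4%, median 1463 UMIs) was led by Siglec1, Zfp992, Iigp1, Tlr7 and Tnf, with folds of 1.94 to 2.48 over the other Mrc1 Stab1 nuclei. The next (712 nuclei, 38.2%) was shallower, at a median of 914 UMIs, and was led by Hbb-bs, Psma4, Efemp2, Arf5 and Mt1 at folds of 2.07 to 3.601. A cell-cycle subgroup (206 nuclei, 11.05%, median 1659.5 UMIs) was led by the kinetochore and centromere genes Knl1 (11.03-fold), Cenpn and Cenpp and by Depdc1b and Efcab11. Of its nuclei, 98.1% had 2 or more counts of 16 cell-cycle genes, against 40.7% and 31.3% in the 2 larger subgroups and 88.5% in the smallest. The cell-cycle subgroup made up 11.4%, 7.71% and 16.3% of the Mrc1 Stab1 nuclei in CO and 14%, 12.9% and 8.35% in KO. The last subgroup (26 nuclei, 1.39%) was led by Piezo2, Plce1, Ldb2, Adam12 and Srgap1. It had a median of 3070.5 UMIs, a mean doublet score of 0.174 against 0.0485 to 0.0661 in the other subgroups, and 0.264% tumor messengers, and was left unnamed. Mrc1 was at 641, 803, 494 and 302 CPM in the 4 subgroups in this order.

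The next question was whether the targeted gene was lower in the KO group. Slc16a7 lies at chr10:125219270-125389465 (GRCm38, minus strand), and the counts are per gene, so they do not resolve a deleted exon. In Mrc1 Stab1 nuclei Slc16a7 was at 94.4, 82.7 and 180 CPM in CO (36, 47 and 63 UMIs) and at 136, 171 and 164 CPM in KO (70, 28 and 112 UMIs), against a mean of 1.38 CPM in tumor-messenger nuclei. On the log2 scale KO exceeded CO by 0.43 (SE 0.32, edgeR adjusted p 0.824). Transcripts of the targeted gene were thus not lower in the libraries labelled KO, and every direction that follows is between libraries labelled KO and libraries labelled CO.

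The share of Mrc1 Stab1 nuclei was compared next. They made up 9.73%, 14.3% and 11.6% of kept nuclei in CO and 8.38%, 5.11% and 12.6% in KO. The mean was 11.9 ± 2.29% in CO and 8.69 ± 3.76% in KO (SD, n = 3 libraries each), the groups overlapped, and the difference of −3.18 percentage points had an exact permutation p of 0.3 (two-sided, smallest possible 0.1). In such data fewer nuclei of a type and fewer counts per nucleus cannot be told apart. When only nuclei with 500 genes or more and mitochondrial counts under 5% were kept, the difference became −8.24 points (exact permutation p 0.2), and limiting tumor messengers to 0.25% moved it to −5.02 points (exact permutation p 0.1). Thinning each nucleus to 1000 UMIs moved it to −1.69 points (exact permutation p 0.7). Leaving out KO replicate 2 gave −1.39 points, leaving out CO replicate 2 gave −1.98 and leaving out KO replicate 3 gave −5.14. Among the nuclei that passed the tumor and myeloid limits, Mrc1 Stab1 nuclei made up 42.7%, 46.8% and 45.5% in CO and 33.8%, 43.9% and 41.7% in KO. The difference was −5.18 points (45.0 ± 2.10% against 39.8 ± 5.29%, SD, n = 3, exact permutation p 0.2). Without KO replicate 1, the lowest library, it was −2.19 points, and with tumor messengers under 0.25% it was −2.93 points. Other alternatives enlarged it. It was −7.23 points without KO replicate 2, −6.87 with no limit on Ccr2, Slfn4 and Gpr141 and −6.01 with tumor messengers under 1% (exact permutation p 0.1 for each).

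Cell-cycle transcripts were compared after each nucleus was thinned to 1000 UMIs, which left 73 to 333 nuclei per library. Nuclei with 2 or more counts of 16 cell-cycle genes made up 31.4%, 31.8% and 40.1% in CO, against 44.3%, 47.9% and 39.6% in KO. The mean was 34.4 ± 4.93% in CO and 44.0 ± 4.16% in KO (SD, n = 3), with KO replicate 3 just below CO replicate 3, and the difference of 9.54 points had an exact permutation p of 0.2. Adjusted over the 3 comparisons of shares by the Benjamini-Hochberg method, each exact permutation p was 0.3. Without thinning the percents were 30.3, 34.6 and 48.6 in CO and 44.2, 60.4 and 57.1 in KO. With 1 or more counts the difference was 13.4 points and the groups did not overlap (exact permutation p 0.1, the smallest possible). The same 16 genes summed to 1437, 1357 and 2055 CPM in CO and 1976, 2151 and 1827 CPM in KO in these nuclei, and to a mean of 3447 CPM in tumor-messenger nuclei, which lies above the level in Mrc1 Stab1 nuclei. The part of tumor messengers in the difference was not tested.

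**Figure D3:**
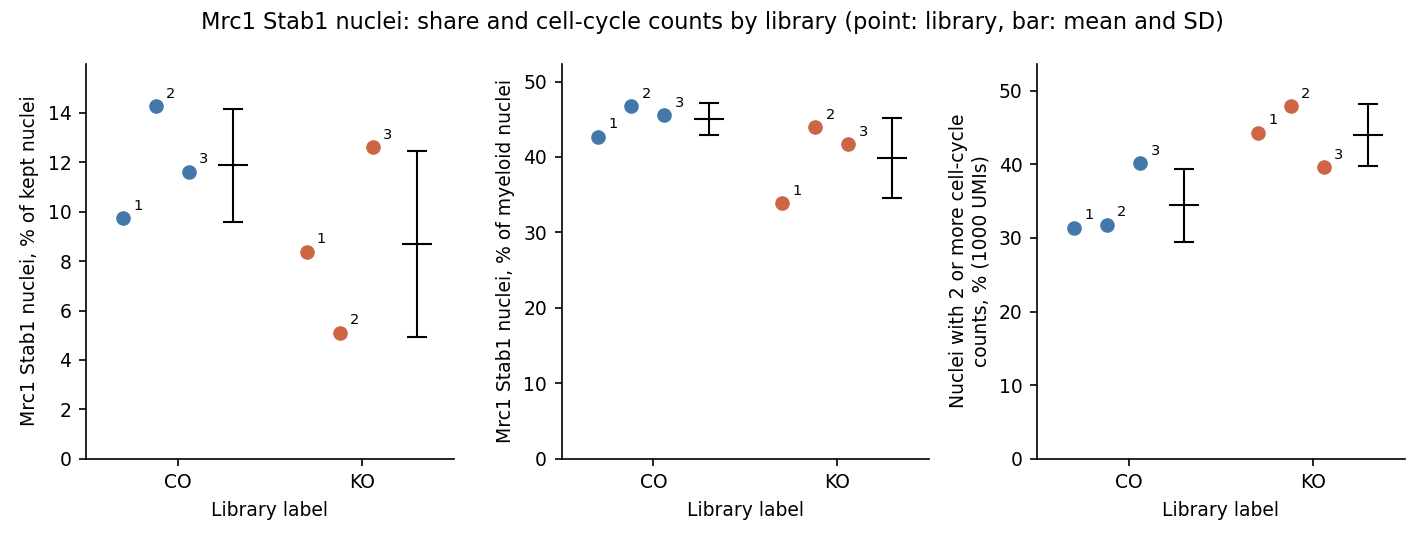
Percent of kept nuclei that were Mrc1 Stab1 nuclei (left), percent of myeloid nuclei that were Mrc1 Stab1 nuclei (middle) and percent of Mrc1 Stab1 nuclei with 2 or more cell-cycle counts after thinning to 1000 UMIs (right). Points are libraries numbered by replicate and bars are the mean and SD of 3 libraries, and in each panel CO and KO overlap.

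Genes were then compared between the libraries labelled KO and CO on counts summed over the Mrc1 Stab1 nuclei of each library. Of 7533 genes tested, edgeR called 0 (0%) at an adjusted p of at most 0.05 and a log2 fold change of at least 0.58 in size. At an unadjusted p under 0.05 there were 476 genes (6.32%), the smallest adjusted p was 0.338, and replicate libraries had a biological coefficient of variation of 24.6%. In 918 genes (12.2%) the 3 KO libraries did not overlap the 3 CO libraries. DESeq2 called 4 of 14736 genes (0.0271%) and left the adjusted p of 11713 undefined. Its 4 calls were Hmga2, a gate gene, Pcdh7 and Ghr, higher, and Med12l, lower. Pcdh7, a protocadherin, was at 246, 190 and 172 CPM in CO and 254, 1103 and 969 CPM in KO.

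One library decided this count. Without KO replicate 1, edgeR called 778 of 7380 genes (10.5%), 283 higher and 495 lower in KO, and the coefficient of variation fell to 15.5%. Leaving out any other library gave 0 calls. Of the genes called higher without KO replicate 1 that were also tested with it, 40.8% had a mean level in tumor-messenger nuclei over 2 times that in Mrc1 Stab1 nuclei, against 1.62% of those called lower and 9.27% of all tested genes. The part of tumor messengers in these calls was not tested.

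The genes named here are the 10 higher and 10 lower with the smallest edgeR p whose groups did not overlap. None passed the adjusted threshold in the main edgeR fit. With all 6 libraries, Ghr and Med12l passed by DESeq2 (DESeq2 adjusted p 0.0139 and 0.0199). Several of the named genes also passed in the edgeR fit with no filter on low counts. Of the 10 higher genes, 3 had levels in tumor-messenger nuclei below or near their own. Dmxl2, a regulator of the vesicle proton pump, was at 52.4, 56.3 and 37.2 CPM in CO and 115, 152 and 145 CPM in KO, against 17.8 CPM in tumor-messenger nuclei (log2 fold change 1.48, SE 0.28, edgeR adjusted p 0.338). Peli2, a ubiquitin ligase of toll-like receptor signalling, was at 21.0, 22.9 and 31.5 CPM in CO and 73.8, 110 and 59.9 CPM in KO (1.63, SE 0.36, edgeR adjusted p 0.441). Emp1, an epithelial membrane protein, was at 62.9, 49.3 and 57.3 CPM in CO and 122, 213 and 114 CPM in KO (1.37, SE 0.31, edgeR adjusted p 0.487). Their levels in tumor-messenger nuclei were 0.191, 1.31 and 1.31 times those in Mrc1 Stab1 nuclei.

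The other 7 were 2.62 to 12.7 times higher in tumor-messenger nuclei. Slc7a11, the cystine importer that feeds glutathione synthesis, was at 23.6, 24.6 and 11.5 CPM in CO and 128, 60.9 and 54.0 CPM in KO, highest in KO replicate 1 (log2 fold change 2.02, SE 0.43, edgeR adjusted p 0.400). Magi2 (2.51), Btbd11 (2.26), Ghr (2.03), Pcdh17 (1.88), Dlgap1 (1.64) and Lhfp (1.47) had the log2 fold changes given. Ghr, the growth hormone receptor, was at 49.8, 63.4 and 65.8 CPM in CO and 85.4, 299 and 342 CPM in KO, against 1886 CPM in tumor-messenger nuclei.

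Of the 10 lower genes, 7 had tumor-messenger levels under 0.4 times their own. Oprm1, the mu opioid receptor, was at 110, 89.8 and 77.3 CPM in CO and 33.0, 24.4 and 27.7 CPM in KO (log2 fold change −1.64, SE 0.30, edgeR adjusted p 0.338). Med12l, a Mediator subunit, was at 194, 250 and 178 CPM in CO and 99.0, 36.6 and 51.1 CPM in KO (−1.64, SE 0.32, edgeR adjusted p 0.342). Cdh23, a cadherin, was at 170, 187 and 158 CPM in CO and 85.4, 54.8 and 61.3 CPM in KO (−1.30, SE 0.26, edgeR adjusted p 0.342). In these 3 genes every KO library was below every CO library and tumor-messenger nuclei held 1.76 to 4.75 CPM. Cd74, the chaperone of MHC class II, was at 1411, 1063 and 744 CPM in CO and 648, 225 and 425 CPM in KO (−1.26, SE 0.36, edgeR adjusted p 0.736). Chil1 (−1.45), Csrp2 (−1.42), Ikzf2 (−1.41), Tspan32 (−1.32), Herpud1 (−1.01) and Pcyt2 (−0.91) had the log2 fold changes given.

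**Figure D4:**
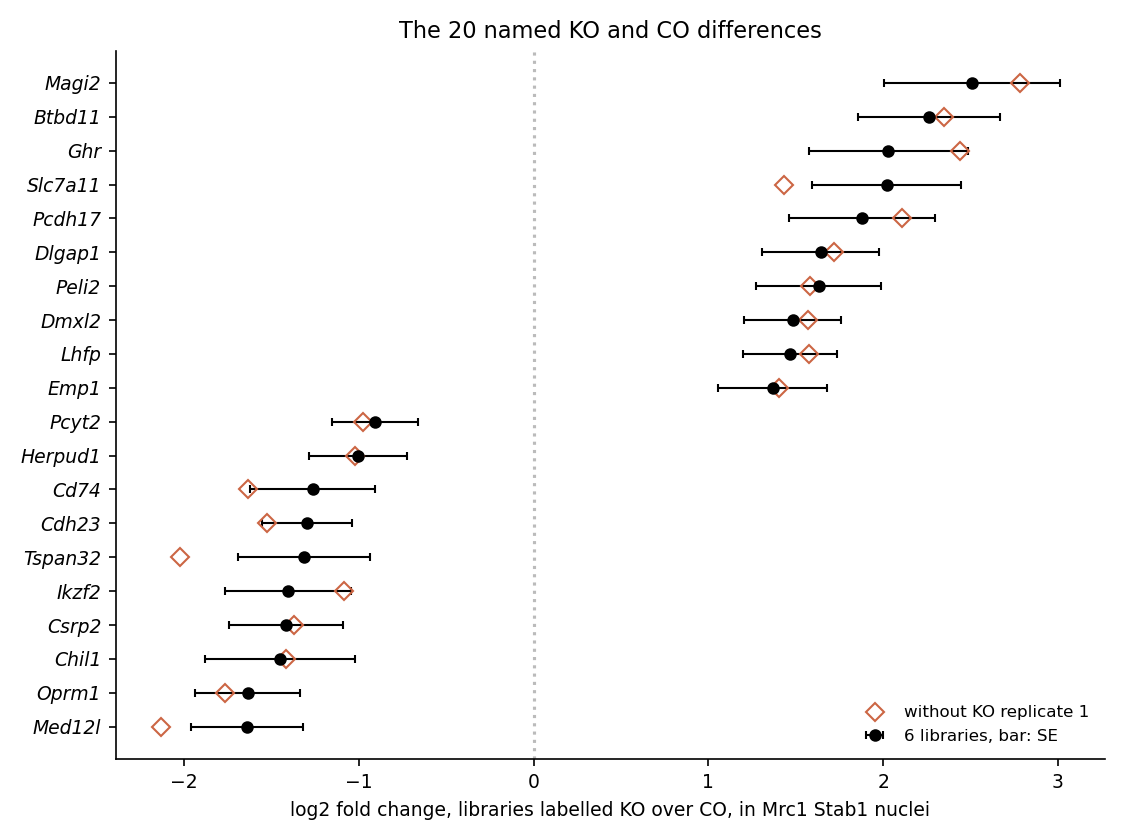
Log2 fold change of libraries labelled KO over CO in Mrc1 Stab1 nuclei for the 20 named genes, with all 6 libraries (black circles, bars are the SE) and without KO replicate 1 (open diamonds). The genes were chosen for groups that do not overlap, so a kept direction is no sign of stability, and the largest shifts were in Tspan32, from −1.32 to −2.02, and Slc7a11, from 2.02 to 1.43.

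Gene lists are described by the genes with a positive and a negative log2 fold change and by their median, beside a median of 0.00 over all 7533 genes, and no gene of any list was called. Of 16 antigen presentation genes 13 were negative (median −0.32, −0.60 to −0.09 over the alternatives). Besides Cd74, the class II genes H2-Ab1, at 501, 352 and 232 CPM in CO and 225, 201 and 183 CPM in KO, and H2-Eb1, at 514, 415 and 332 CPM in CO and 248.5, 177 and 248 CPM in KO, did not overlap between the groups, and they are named here because of their values. Class I levels overlapped, with H2-K1 at 2195, 2241 and 1411 CPM in CO and 2574, 1231 and 1445 CPM in KO. Of 11 interferon response genes 10 were negative (median −0.44, −0.68 to −0.33), among them Usp18 at 220, 204 and 175 CPM in CO and 157, 79.2 and 84.7 CPM in KO. Isg15 was at 312, 342 and 155 CPM in CO and 293, 67.0 and 140 CPM in KO, and overlapped.

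Of 9 scavenger and endocytic receptors tested 7 were positive (median 0.53, 0.19 to 0.59). Msr1, the class A scavenger receptor, was at 294, 308 and 281 CPM in CO and 588, 591 and 247 CPM in KO. Dab2, an endocytic adaptor, was at 999, 780 and 1151 CPM in CO and 1173, 1115 and 695 CPM in KO, and for both genes KO replicate 3 lay below every CO library. The engulfment list was mixed, with 11 of 19 positive (median 0.23, 0.04 to 0.23), from Elmo1 at 0.30 to Dock8 at −0.47. Mertk, of the same list, was higher in all 3 KO libraries (log2 fold change 0.56, SE 0.24, edgeR adjusted p 0.777). The groups did not overlap in tumor-messenger nuclei either, where Mertk was at 216, 220 and 224 CPM in CO and 263, 338 and 309 CPM in KO. Of 16 cell-cycle genes 14 were positive (median 0.25, 0.09 to 0.53), led by Diaph3 at 65.5, 98.6 and 112 CPM in CO and 120, 225 and 216 CPM in KO, against 529 CPM in tumor-messenger nuclei.

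The lists that describe macrophage polarization showed no common direction. Of the 10 M1-associated genes tested 5 were positive (median 0.01), and of the 4 M2-associated genes 2 were (median 0.07), out of 16 listed. Cd86, a costimulatory ligand, was at 281, 246 and 258 CPM in CO and 489, 280 and 289 CPM in KO. Tgfb1 was at 354, 313 and 298 CPM in CO and 324, 232 and 199 CPM in KO. Complement genes were negative in 5 of 6 (median −0.31, −0.95 to −0.14), with C1qa at 635, 595 and 418 CPM in CO and 683, 177 and 253 CPM in KO, so that KO replicate 1 was the highest library and the other KO libraries the lowest. The same order held for Apoe, at 1872, 1709 and 796 CPM in CO and 1924, 329 and 517 CPM in KO.

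Lipid-associated genes were positive in 7 of 12 (median 0.11). Spp1, which encodes osteopontin, was at 5537, 5068 and 5164 CPM in CO and 4312, 2151 and 2326 CPM in KO, but tumor-messenger nuclei held 5376 CPM. Lysosomal cathepsins were negative in 7 of 10 (median −0.19), with Ctss at 1361, 1164 and 1128 CPM in CO and 990, 628 and 842 CPM in KO. Immediate-early and heat-shock genes were negative in 5 of 7 (median −0.34), with Hspa8 at 926, 958 and 879 CPM in CO and 866, 225 and 447 CPM in KO. Medians lay near 0 for 10 chemokines and growth factors (0.07, 5 positive), 15 macrophage transcription factors (0.08, 9 positive) and 16 genes of CSF1 receptor signalling (−0.02, 8 positive). Zeb2, a transcription factor of the monocyte and macrophage lineage, was at 4402, 4878 and 4643 CPM in CO and 3559, 6093 and 4858 CPM in KO.

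Of 9 genes of monocarboxylate transport and lactate metabolism 4 were positive (median −0.03). Bsg, the partner of MCT1 and MCT4 at the membrane, was at 590, 623 and 521 CPM in CO and 963, 262 and 432 CPM in KO, and lactate dehydrogenase A (Ldha) was at 406, 319 and 198 CPM in CO and 382, 110 and 194 CPM in KO. For both genes KO replicate 1 and KO replicate 2 were at or near the opposite ends of the 6 libraries. Slc16a10, an aromatic amino acid transporter of the same family, was at 212, 227 and 240 CPM in CO and 159, 274 and 280 CPM in KO. Of 23 macrophage genes that the study names 11 were positive (median −0.16). The study chose that list on these samples, so it is not independent evidence of a direction.

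**Figure D5:**
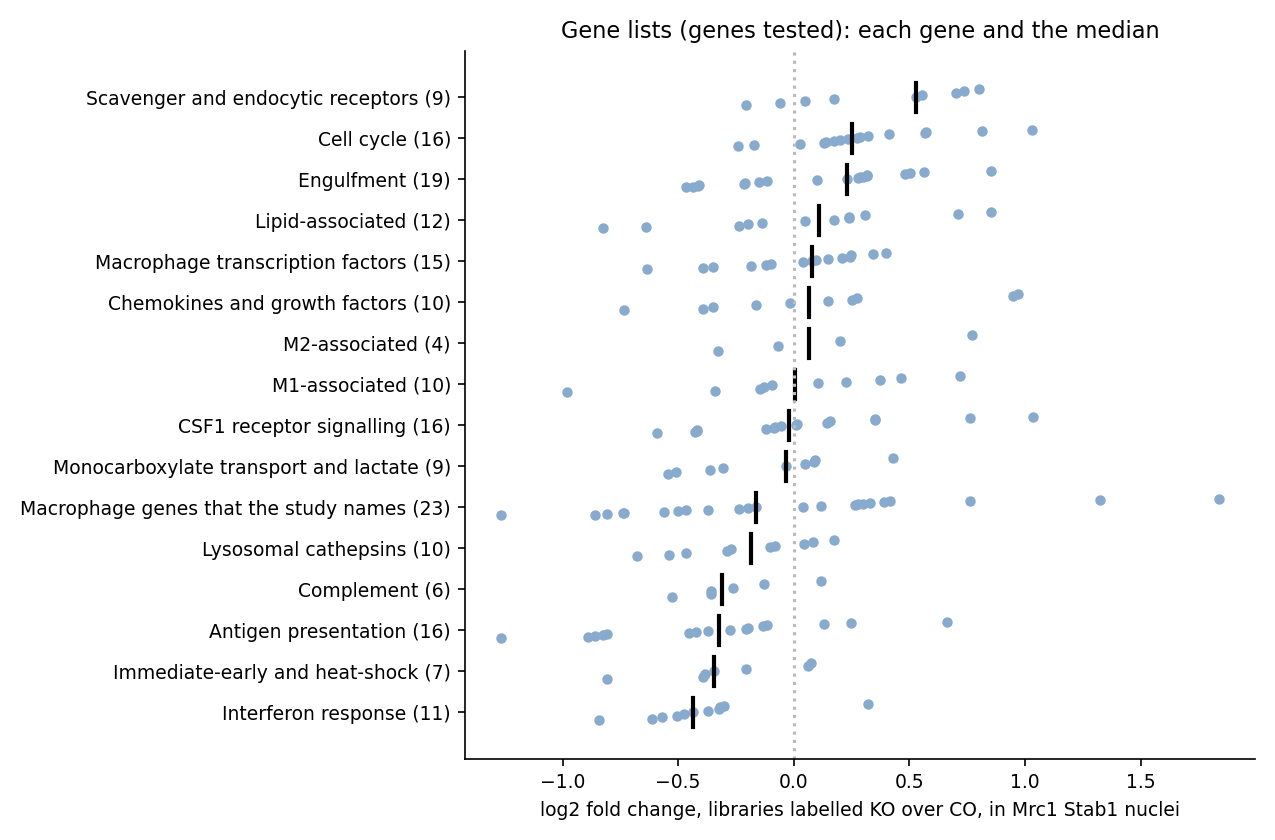
Log2 fold change of libraries labelled KO over CO in Mrc1 Stab1 nuclei for each tested gene (points) of 16 gene lists, with the list median (black bar) and the number of genes tested in brackets. Medians run from −0.44 for the interferon response to 0.53 for scavenger and endocytic receptors.

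Whether a difference between KO and CO was larger in Mrc1 Stab1 nuclei than elsewhere was tested by an interaction term, with a block for each library. With all other nuclei as the comparison, 1 of 12723 genes (0.00786%) was called by edgeR, while 735 stood at an unadjusted p under 0.05. That gene was Pstpip2, which encodes an adaptor that restrains macrophage activation. It was at 57.7, 52.8 and 103 CPM in CO and 124, 134 and 134 CPM in KO in Mrc1 Stab1 nuclei, and at 35.6, 35.6 and 127 CPM in CO and 31.5, 45.6 and 39.8 CPM in KO in all other nuclei. In Ccr2 Slfn4 Gpr141 nuclei it was at 104, 131 and 147 CPM in CO and 138, 173 and 180 CPM in KO, above its level in Mrc1 Stab1 nuclei in each library and higher on average in KO. The interaction was 1.53 on the log2 scale (SE 0.27, edgeR adjusted p 0.0468). Its difference in Mrc1 Stab1 nuclei alone was 0.92 on the log2 scale (SE 0.30, edgeR adjusted p 0.736). In all other nuclei CO replicate 3 was far above the remaining 5 libraries, and without it the interaction was 1.19 with an edgeR adjusted p of 0.0767. The interaction was 1.70 (0.0807) without CO replicate 1 and 1.25 (0.140) without KO replicate 1, with the edgeR adjusted p in brackets. By DESeq2 0 genes were called and 332 had an unadjusted p under 0.05. None of the 20 named genes passed, with a smallest edgeR adjusted p of 0.0673, shared by Btbd11, Dlgap1, Peli2 and Med12l.

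With Ccr2 Slfn4 Gpr141 nuclei as the comparison, 0 of 7118 genes (0%) were called by edgeR and 0 by DESeq2. At an unadjusted p under 0.05 there were 270 genes by edgeR and 45 by DESeq2. The 30 to 274 nuclei per library in that set limit what can be seen.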

How the data were processed

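Tumors were homogenized and lysed, and nuclei were loaded on a droplet system with 3′ chemistry (Chromium, v3.1), some after additional washes, and which samples were washed is not stated. The authors counted UMIs with Cell Ranger (version 3.0.2 in their notes, 3.1.0 in the file headers) against GRCm38. What the authors deposited are UMI counts of each gene in each nucleus, not normalized. All values are whole numbers, so the correction for free RNA that the authors' methods describe was not seen in them.

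Groups and replicate numbers came from the sample titles. Limits on nuclei were those of the study. Members and gene lists were chosen with earlier results of these data known. Doublets were kept: Scrublet with exact neighbors (scanpy 1.11.5, Python 3.11.15) marked 26 nuclei (0.144%), too few to use, and removing the 500 with the highest scores, at 0.8% per 1000 barcodes, was an alternative. Counts were summed per library. KO was compared with CO with edgeR 4.0.16 in R 4.3.3 (quasi-likelihood F-test), TMM scaling and its default filter on low counts, without covariates, and interactions had library as a block. A call needed a Benjamini-Hochberg adjusted p of at most 0.05 and a log2 fold change of at least 0.58 in size. The SE was taken as the size of the log2 fold change over the root of F. DESeq2 1.42.0 was an alternative. Shares were compared by two-sided exact permutation over libraries, with Benjamini-Hochberg adjustment over the 3 comparisons. Subgroups came from leidenalg 0.10.2 at resolution 0.5 on 20 principal components of 2000 genes, centred within libraries.

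Named genes were the 16 gate genes, the 20 with the highest lowest-library ratio to all other nuclei among genes at 20 CPM or more in every library, the 10 highest and 10 lowest against Ccr2 Slfn4 Gpr141 nuclei, the 10 higher and 10 lower with the smallest edgeR p and no overlap, up to 4 of the highest members of each list, and 5 per subgroup. Genes named beyond this were chosen after their values were seen: Mertk among the engulfment genes, H2-Ab1, H2-Eb1, Pcdh7, Pstpip2 and the cell type markers shown with detection shares. Within groups the chi-square per degree of freedom between libraries lay between 8.60 and 195, so no library was a copy. The procedures were tested on simulated data. Alternatives covered scaling, filters, gate limits, doublets, depth, each library left out and the replicate number as a block.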

Additional observations from a re-analysis of the deposited data

Results flagged for a closer look

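Pstpip2 stood out because its KO and CO difference in Mrc1 Stab1 nuclei was not the one in all other nuclei, by a test of the difference itself. The interaction was 1.53 on the log2 scale (edgeR adjusted p 0.0468), and all 3 KO libraries were above all 3 CO libraries in Mrc1 Stab1 nuclei. In Ccr2 Slfn4 Gpr141 nuclei it was also higher on average in KO, with a mean of 164 ± 22.4 CPM against 127 ± 21.5 CPM for CO (SD, n = 3 libraries), and with CO replicate 3 above KO replicate 1. Over the alternatives it lay between 1.18 and 1.70, always positive, with an adjusted p of 1.33e-05 to 0.452, and it passed the threshold in 6 alternatives and missed it in 8. Groups of 3 libraries were too small to search for single libraries that stand apart.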

How the results depend on the processing

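The number of genes called between KO and CO in Mrc1 Stab1 nuclei was 0 with all libraries, 4 by DESeq2, 74 with no filter on low counts, and 0 to 778 with 1 library left out, where the 778 came without KO replicate 1 and 0 without each other library. Genes whose difference departed from that in all other nuclei numbered 1. They were 0 by DESeq2, with DESeq2 size factors, without doublets, with the stricter gate and after thinning, 4 with tumor messengers under 0.25%, 26 with no filter, and 0 to 52 with 1 library left out (0 without CO replicate 1, 4 without CO replicate 2, 24 without CO replicate 3, and 8, 52 and 9 without KO replicates 1, 2 and 3). Against Ccr2 Slfn4 Gpr141 nuclei the 0 became 9 with no filter and 0 to 6 with 1 library left out (6 without CO replicate 2, 1 without CO replicate 3, and 2 and 1 without KO replicates 2 and 3). The cause of these changes was not tested.

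The share of Mrc1 Stab1 nuclei was lower in KO and their share with cell-cycle counts higher under every alternative run, and no exact permutation test of 3 against 3 libraries can go below p = 0.1. The 20 genes named between KO and CO were chosen for groups that do not overlap, so their direction is no sign of stability. Of their 271 results over the alternatives, 39 passed the threshold where the main edgeR fit did not. Of these, 20 came without KO replicate 1, and the others came by DESeq2 or with no filter on low counts. Medians of 8 of the 16 lists kept their sign under every alternative. Those of CSF1 receptor signalling, chemokines and growth factors, lipid-associated genes, cathepsins, the M1 and M2 lists, transcription factors and the genes that the study names changed sign under at least 1.

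The replicate numbers of CO and KO did not pair the libraries, since the deviations of same-numbered libraries had correlations of 0.265, −0.181 and 0.189. With the replicate number as a block, 0 genes were called between KO and CO, 36 against all other nuclei and 2 against Ccr2 Slfn4 Gpr141 nuclei (Jun and Inhba), and the differences in shares had exact permutation p of 0.5, 0.25 and 0.5 for kept nuclei, myeloid nuclei and cell-cycle counts, where 0.25 is the smallest that 3 pairs allow.

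Depth and the number of nuclei limit the results. Mrc1 Stab1 nuclei had a median of 1247 UMIs, at which 25.7% of them showed 1 of the 4 core genes, and KO replicate 2 rests on 101 nuclei.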

Other observations

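Several receptors that mark resident tissue macrophages had few or no counts in the Mrc1 Stab1 nuclei of most libraries. Cd163, the haemoglobin scavenger receptor, was at 40.1 CPM (14 UMIs) in CO replicate 3 and at 0 to 1.94 CPM in the other 5 libraries. Lyve1, a hyaluronan receptor, was at 11.5 CPM (4 UMIs) in CO replicate 3 and at 0 to 1.76 CPM elsewhere. Timd4, Folr2 and Vsig4 were at 0 to 7.77 CPM and Marco was at 0 in every library. Siglec1, from the same list of scavenger and endocytic receptors, was not near absent. It was at 80.1 CPM in the largest subgroup and at 32.3 CPM in the other Mrc1 Stab1 nuclei. CO replicate 3 was also the library in which skeletal muscle markers reached 464 CPM, led by Ttn at 229 CPM. These genes were picked after their values were seen and none was tested.

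In Mrc1 Stab1 nuclei, Negr1 departed from the other libraries in KO replicate 1 alone. In Ccr2 Slfn4 Gpr141 nuclei it was at 389, 401 and 579 CPM in CO and at 4.69, 162 and 512 CPM in KO. There KO replicate 2, with 30 nuclei, was also below every CO library. In tumor-messenger nuclei Negr1 was at 66.0, 85.9 and 101 CPM in CO and at 74.9, 132 and 114 CPM in KO. The low level of KO replicate 1 was thus seen in both sets of macrophage-gated nuclei and not in the tumor-messenger nuclei of the same library.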
